A study of Mus musculus with 4 samples.

Results

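The genes described here are 36 members of glycolysis, the pentose phosphate pathway, lactate formation and export, and gluconeogenesis, chosen by gene symbol. All 36 were found among 52535 gene models, and 34 passed the filter on low counts. They were measured by RNA sequencing of samples labelled as ducts, from the pancreas of C57BL/6 mice. Of 4 libraries, 2 came from mice given as wild type (WT 1 and WT 2) and 2 from mice of the genotype Lats1fl/fl; Lats2fl/fl; Sox9-CreER (KO 1 and KO 2, here called the libraries labelled knockout). CreER is a Cre recombinase that acts after tamoxifen, and here it is driven in cells that express Sox9. LATS1 and LATS2 are the kinases that restrain the transcriptional co-activators YAP and TAZ. The comparison asks what differs between the duct samples labelled knockout and those labelled wild type, which also held RNA of other cell types (below). Age, time after induction, how the cells were isolated, and whether the wild-type mice carried Cre or floxed alleles or received tamoxifen were not given in the sources used here. The labels do not say that each library came from its own animals, so the p-values measure only the spread between these libraries.

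Glycolysis splits glucose into pyruvate in the cytosol and yields ATP and NADH. Hexokinases trap glucose as glucose 6-phosphate, phosphofructokinase commits it to the pathway, and the steps from aldolase to pyruvate kinase recover the energy. Lactate dehydrogenase can turn pyruvate into lactate, which monocarboxylate transporters carry out of the cell, while pyruvate dehydrogenase kinases hold pyruvate back from the mitochondrion. The pentose phosphate pathway draws off glucose 6-phosphate to make NADPH and ribose, and gluconeogenesis runs the opposite way, mainly in liver and kidney.

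Library totals ran from 3566387 to 5925601 counts. Lats1 and Lats2 were not lower in the libraries labelled knockout (log2 differences of 0.36 ± 0.19 and 0.39 ± 0.19 SE, edgeR adjusted p = 0.172 and 0.127). Whole-gene counts can include transcripts that lose only some exons, so they do not check the deletion. Among marker lists, 5 of 6 duct, 12 of 12 macrophage and 6 of 7 fibroblast genes rose, and 7 of 7 T and NK cell, 6 of 6 B cell, 4 of 4 endothelial and 4 of 4 smooth muscle genes fell. The 20 acinar markers, of which 1 was called lower, summed in WT 1 and WT 2 to 73560 and 131200 CPM (the usual depth-scaled count unit, with library sizes adjusted by TMM, the trimmed mean of M-values). In KO 1 and KO 2 they summed to 248 and 6661 CPM. Duct markers, the labelled cell type, summed to 605 and 614 CPM in wild type and to 3074 and 3048 CPM in the libraries labelled knockout, with none of the 6 at 0. Xist, which is expressed in female cells, had 362 counts in WT 1, 0 in WT 2, 852 in KO 1 and 838 in KO 2, and 4 Y-linked genes together had 464, 824, 307 and 483. WT 2 thus held male RNA with no Xist count, and the other 3 libraries held transcripts of both sexes. In such mixed samples, fewer cells of a type and less RNA per cell cannot be told apart. What part these other cells and the mix of sexes had in the results below was not tested.

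The main isozymes of lower glycolysis, the hexokinase Hk2 and the lactate exporter Slc16a3 rose in the libraries labelled knockout. So did G6pdx and Pgd of the oxidative pentose phosphate branch. Among the 36 genes, Hk1, Aldoc, Eno2, Ldhb and Slc16a1, alternatives to genes that rose, were not called. Of the 34 members tested, 15 rose and 3 fell (edgeR's quasi-likelihood test, Benjamini-Hochberg adjusted p under 0.05 over 13990 genes). Taking the 20 acinar marker genes out before scaling left the same members called, but this alters only the scaling and not the acinar RNA in a library. The same test called 22.0% of all genes higher and 20.2% lower, 42.2% in all, so 44.1% of the members were higher against 22.0% of all genes. The median log2 change was 0.41 over the tested members and -0.01 over all tested genes. The members' median was 0.62 with WT 1 left out, 0.24 with WT 2 left out, 0.23 with KO 1 left out and 0.21 with upper quartile scaling. Both knockout-labelled libraries lay above both wild-type ones for 18 of the 34 members and below them for 8, against 37.4% and 36.8% of all genes. The 36 members together took 0.466% of the counts in WT 1 (exact 95% binomial interval 0.459 to 0.473) and 0.390% in WT 2 (0.384 to 0.395). They took 0.809% in KO 1 (0.802 to 0.817) and 0.678% in KO 2 (0.672 to 0.685), so their share of the RNA was higher in both libraries labelled knockout. These intervals cover counting error only.

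Fits without 1 library compare a single library with 2, so the lone library is assumed to vary like the other group. Leaving out WT 2 lowered the count of members that rose from 15 to 9 of 36, against 15.6% of all genes in the same fit. Without WT 1 it was 13 of 34 (16.7% of all genes), without KO 1 11 of 36 (15.0%) and without KO 2 15 of 36 (15.5%). The count of members that fell was 1 without KO 2, against 12.4% of all genes. Upper quartile scaling moved the median of all genes to -0.20 and called 12 members higher and 6 lower, against 16.7% and 25.7% of all genes. The rises of Aldoa, Tpi1 and Tkt were the 3 that lost their call with it. Among the 18 called members, 9 rises (Slc2a1, Hk2, Pfkfb4, Pgam1, Eno1, Pkm, Slc16a3, G6pdx and Pgd) and 1 fall (Pdk1) kept their call in all 11 alternatives run.

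**Figure D1:**
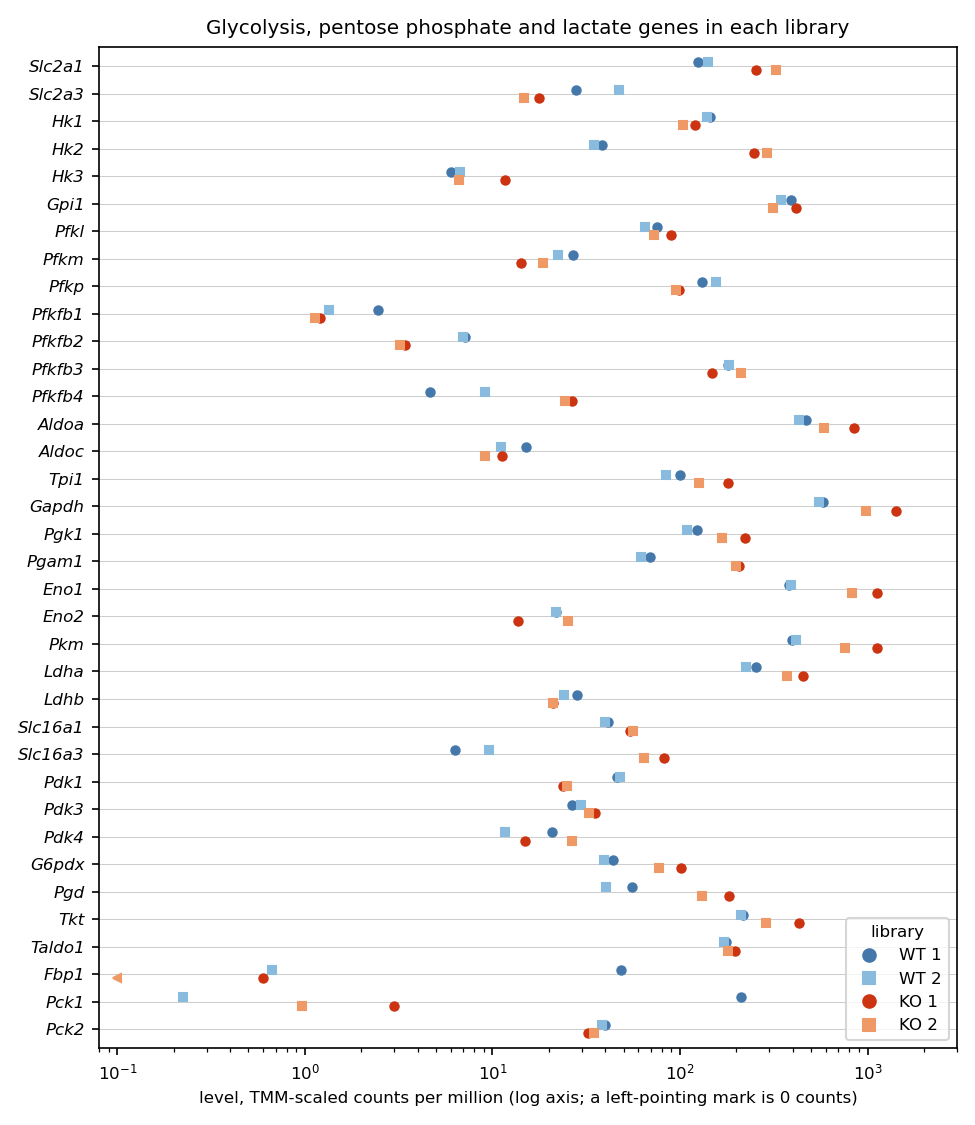
Level of each of the 36 genes in each library, in TMM-scaled CPM on a log axis, with 1 point per library (circles replicate 1, squares replicate 2). Hk2, Slc16a3 and Pgam1 show both knockout-labelled libraries far above both wild-type ones, while Pck1 and Fbp1 are high in WT 1 alone.

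The 3 largest rises were those of Slc16a3, Hk2 and Pfkfb4. Slc16a3 (mm10, chromosome 11, 120948480 to 120960868) encodes MCT4, the low-affinity monocarboxylate transporter that exports lactate from strongly glycolytic cells. Its level was 6.28 CPM in WT 1, 9.61 in WT 2, 82.2 in KO 1 and 64.2 in KO 2. The groups lay far apart, with a 9.10-fold rise (log2 change 3.19 ± 0.27 SE, edgeR adjusted p = 6.66e-05). Hk2 (chromosome 6, 82725025 to 82774454), the inducible hexokinase that can bind mitochondria, stood at 38.5 and 34.6 CPM in wild type and at 247 and 293 CPM in the libraries labelled knockout, a 7.38-fold rise (log2 change 2.88 ± 0.18 SE, edgeR adjusted p = 1.80e-05). Pfkfb4 (chromosome 9, 108991778 to 109032228), which makes and breaks down the phosphofructokinase activator fructose 2,6-bisphosphate, rose 3.61-fold from a low level. Its counts were 17 and 41 in wild type and 132 and 151 in the libraries labelled knockout (log2 change 1.85 ± 0.34 SE, edgeR adjusted p = 0.00313). Its log2 change was 1.48 with WT 1 left out, below those of Pgd (1.97) and Pgam1 (1.72) in that fit, and 2.45 with WT 2 left out. With KO 2 left out it was 1.96, beside 1.97 for Pgd, so its place among the 3 rested on WT 1 and KO 2.

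Promoter sequence was looked up for the members because 15 of them rose in the same libraries. RefSeq windows (GRCm38.p6, the assembly behind mm10) of 250 bases before to 50 after a start site were found for 35 members, all but Slc2a3. The window nearest the start of the gene model was taken for each. The letters ACGTG are 1 form of the core bound by hypoxia-inducible factors, and the form GCGTG was not searched. On either strand, ACGTG stood in 8 of the 15 windows of members that rose. It stood in 6 of the 16 of tested members that were not called and 0 of the 2 of members that fell. Of all 32851 windows 19.6% held ACGTG, as did 26.5% of the 9690 windows with at least 60% G and C. ACGTG also lies inside the E-box CACGTG, which 1 of the 15 windows held, against 7.2% of all windows. The TEAD letters CATTCC, bound by the DNA-binding partners of YAP, stood in 0 of the 15 (14.7% of all windows). The AP-1 letters TGANTCA stood in 0 of all 35 (7.8% of all windows). In the windows with at least 60% G and C, the shares were 10.8% for CACGTG, 9.4% for CATTCC and 3.4% for TGANTCA. The motif counts describe letters in short windows and were not tested. The 250 bases before the start site are given below, 5′ to 3′ on the gene's strand, for the 3 members with the largest rise and for both lactate dehydrogenases, an isozyme pair of which 1 rose, with ACGTG or its reverse complement CACGT in capitals.
Slc16a3: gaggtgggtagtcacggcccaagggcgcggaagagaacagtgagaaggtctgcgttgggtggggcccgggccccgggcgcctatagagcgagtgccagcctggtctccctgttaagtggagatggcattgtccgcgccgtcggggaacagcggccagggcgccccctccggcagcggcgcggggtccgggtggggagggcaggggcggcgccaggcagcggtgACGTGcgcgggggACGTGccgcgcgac
Hk2: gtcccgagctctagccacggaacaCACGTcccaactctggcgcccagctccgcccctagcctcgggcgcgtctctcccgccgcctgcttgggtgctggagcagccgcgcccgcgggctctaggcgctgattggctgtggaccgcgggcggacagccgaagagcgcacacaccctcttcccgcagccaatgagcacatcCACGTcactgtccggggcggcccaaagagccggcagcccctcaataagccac
Pfkfb4: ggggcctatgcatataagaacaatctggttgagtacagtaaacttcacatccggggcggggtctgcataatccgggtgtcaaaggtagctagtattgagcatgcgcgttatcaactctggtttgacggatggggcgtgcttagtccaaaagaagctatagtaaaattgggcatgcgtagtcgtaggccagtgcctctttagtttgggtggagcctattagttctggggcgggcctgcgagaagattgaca
Ldha: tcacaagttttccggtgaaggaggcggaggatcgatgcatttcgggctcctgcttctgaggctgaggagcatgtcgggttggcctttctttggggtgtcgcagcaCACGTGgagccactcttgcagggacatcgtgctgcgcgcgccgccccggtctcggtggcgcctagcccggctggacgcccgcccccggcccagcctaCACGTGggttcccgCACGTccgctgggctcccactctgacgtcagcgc
Ldhb: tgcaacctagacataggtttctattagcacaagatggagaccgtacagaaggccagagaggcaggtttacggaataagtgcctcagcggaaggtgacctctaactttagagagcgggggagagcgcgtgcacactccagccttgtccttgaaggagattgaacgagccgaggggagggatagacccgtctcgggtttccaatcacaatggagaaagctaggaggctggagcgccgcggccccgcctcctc
In Slc16a3 the 2 matches begin 27 and 14 bases before the start site, and in Hk2 they begin 226 and 52 bases before it (chr11:120948817-120949066, plus strand, and chr6:82774455-82774704, minus strand). Ldha (chr7:46845554-46845803, plus strand) holds 5 matches counted on both strands, of which 4 pair up in 2 CACGTG boxes. Pfkfb4 (chr9:108991652-108991901, plus strand), which rose, and Ldhb (chr6:142507958-142508207, minus strand), which was not called, hold neither ACGTG nor CACGT in this stretch. The lactate dehydrogenases do not stand for the other families. In the whole windows Hk2 held 2 matches, against 0 in Hk1 and 1 in Hk3. Genes not called held more than the gene that rose in other families. Slc16a1 held 3 against 2 in Slc16a3, Aldoc 1 against 0 in Aldoa, and Pfkfb3 1 against 0 in Pfkfb4. Eno1, which rose, and Eno2, not called, held 0 each. For genes with more than 1 window listed, the counts above depend on the window taken. Windows not taken held ACGTG for Aldoa (2 of its 3 windows) and Pkm (1 of 2), which rose. The same was true of Hk1 (1 of 2) and Pfkfb2 (2 of 3), which were not called.

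Of the glucose transporters, Slc2a1 rose and Slc2a3 fell. Slc2a1 (chromosome 4, 119108711 to 119137983) encodes GLUT1, the widely expressed carrier for basal glucose uptake. It stood at 125 and 141 CPM in wild type and at 256 and 324 CPM in the libraries labelled knockout, a 2.18-fold rise (log2 change 1.12 ± 0.18 SE, edgeR adjusted p = 0.00145). Slc2a3 (chromosome 6, 122727809 to 122801640) encodes GLUT3, a high-affinity carrier known from neurons and white blood cells. Its level was 27.9 and 47.4 CPM in wild type and 17.6 and 14.6 CPM in the libraries labelled knockout, a 2.34-fold fall (log2 change -1.23 ± 0.29 SE, edgeR adjusted p = 0.00986). With WT 2 left out the edgeR adjusted p was 0.0955 (log2 difference -0.79), and with KO 2 left out it was 0.0827 (-1.06). In the same libraries the 7 T and NK cell markers summed to 804 and 793 CPM in wild type and 29.6 and 18.2 CPM in the libraries labelled knockout, and the 6 B cell markers to 2132 and 2238 against 168 and 63.4 CPM. Of these 13 genes, Nkg7 was at 0 in KO 2 and the others had counts in all 4 libraries. The 12 macrophage markers went the other way, from 660 and 619 CPM to 6858 and 4758 CPM. Slc2a1 held 81.8% and 74.8% of the counts of this pair in WT 1 and WT 2 (exact 95% intervals 78.3 to 84.9 and 71.7 to 77.7) and 93.6% and 95.7% in KO 1 and KO 2 (92.1 to 94.8 and 94.7 to 96.5).

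Within the hexokinases, the leading transcript differed between the groups. Hk1, the constitutive form, stood at 145 and 139 CPM in wild type and 120 and 104 CPM in the libraries labelled knockout and was not called (log2 difference -0.35 ± 0.16 SE, edgeR adjusted p = 0.118). Upper quartile scaling called it lower (-0.54, edgeR adjusted p = 0.0280). Hk2 held 20.3% and 19.2% of hexokinase counts in WT 1 and WT 2 (exact 95% intervals 17.4 to 23.5 and 16.5 to 22.0). In KO 1 and KO 2 it held 65.2% and 72.6% (63.0 to 67.4 and 70.8 to 74.3). Scaled to the length of the principal transcript, Hk1 led in wild type with a mean level of 37.0 CPM per kb against 6.64 for Hk2, and Hk2 led in the libraries labelled knockout with 48.9 against 29.1 for Hk1. With 2 libraries a group, an exact permutation test of such a share could not pass, so these splits are given as description. Hk3, a hexokinase known from myeloid cells, stood at 6.01 and 6.70 CPM in wild type and 11.6 and 6.60 CPM in the libraries labelled knockout, so its groups overlapped (edgeR adjusted p = 0.339). The 12 macrophage markers, given above with Slc2a3, all rose, and none was at 0.

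**Figure D2:**
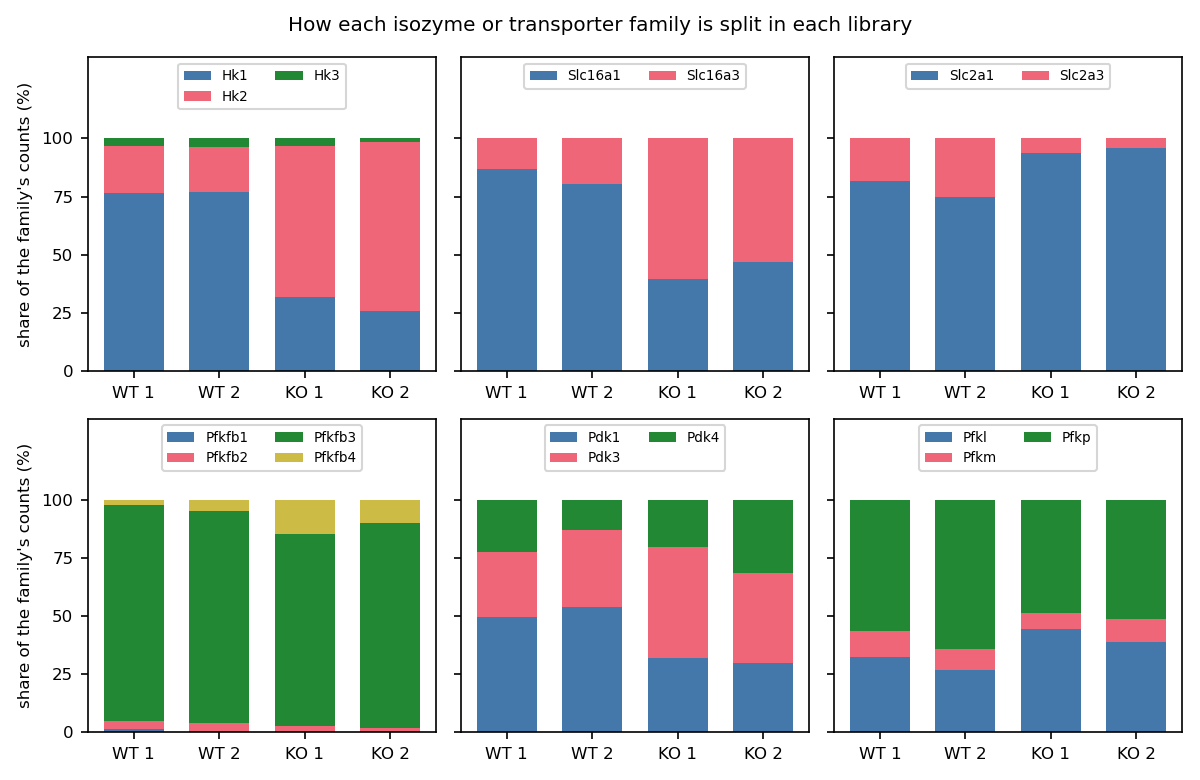
Share of each family's counts held by each isozyme or transporter, as stacked bars in percent, 1 bar per library. Hk2 took 65.2% and 72.6% of hexokinase counts in KO 1 and KO 2 against 20.3% and 19.2% in WT 1 and WT 2, and Slc16a3 took 60.3% and 53.2% of the counts of its pair against 13.2% and 19.5%.

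Between hexokinase and aldolase, no step was called higher at its main enzyme. Gpi1, which turns glucose 6-phosphate into fructose 6-phosphate, stood at 391 and 346 CPM in wild type and 416 and 314 CPM in the libraries labelled knockout, so the wild-type values lay between the others (log2 difference -0.01 ± 0.19 SE, edgeR adjusted p = 0.958). Of the 3 phosphofructokinase genes, which encode the liver (Pfkl), muscle (Pfkm) and platelet (Pfkp) subunits of the committing enzyme, 0 rose and 1 fell. Pfkp (chromosome 13, 6579768 to 6648777) stood at 132 and 155 CPM in wild type and 98.8 and 95.4 CPM in the libraries labelled knockout (log2 change -0.56 ± 0.16 SE, edgeR adjusted p = 0.0243). It kept its call when WT 1 was left out, but the edgeR adjusted p was 0.175 when WT 2 was left out, 0.0596 for KO 1 and 0.0883 for KO 2. Pfkl stood at 75.7 and 65.3 CPM against 90.0 and 72.9 CPM, with overlapping groups (edgeR adjusted p = 0.396). Pfkm was at 26.8 and 22.3 CPM against 14.2 and 18.5 CPM and was not called (edgeR adjusted p = 0.102), but upper quartile scaling called it lower (0.0365).

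The PFKFB enzymes set the level of fructose 2,6-bisphosphate, and only Pfkfb4 of the 3 tested was called with TMM scaling. Pfkfb3, the form with the highest kinase activity, had the highest level per length of the family (means of 39.1 and 38.7 CPM per kb in the 2 groups, against 1.98 and 7.27 for Pfkfb4). It stood at 180 and 183 CPM in wild type and 147 and 211 CPM in the libraries labelled knockout (edgeR adjusted p = 0.960). Pfkfb4 held 2.39% and 4.58% of PFKFB counts in WT 1 and WT 2 (exact 95% intervals 1.40 to 3.81 and 3.30 to 6.16) and 14.8% and 10.1% in KO 1 and KO 2 (12.5 to 17.3 and 8.64 to 11.8). Pfkfb2, the heart-type form, stood at 7.10 and 6.93 CPM against 3.40 and 3.22 CPM and was not called (edgeR adjusted p = 0.0621, and 0.0335 with upper quartile scaling). Pfkfb1, the liver and muscle form, had 9, 6, 6 and 7 counts in WT 1, WT 2, KO 1 and KO 2 and was not tested.

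From aldolase to pyruvate kinase, the main isozyme of each step rose, 7 of 7, with log2 changes from 0.67 to 1.63. Of all tested genes 22.0% were called higher. With upper quartile scaling 5 of the 7 kept their call (all but Aldoa and Tpi1), against 16.7% of all genes called higher. With WT 2 left out the log2 differences of the 7 ran from 0.61 (Aldoa) to 1.56 (Pgam1). Pgam1 (chromosome 19, 41911871 to 41918664), phosphoglycerate mutase, rose most, from 68.9 and 62.1 CPM in wild type to 206 and 199 CPM in the libraries labelled knockout. That is a 3.09-fold rise, larger than the spread within either group (log2 change 1.63 ± 0.16 SE, edgeR adjusted p = 1.32e-04). Eno1 (chromosome 4, 150236721 to 150248879), the main enolase, rose 2.53-fold, from 382 and 389 CPM to 1123 and 825 CPM (log2 change 1.34 ± 0.20 SE, edgeR adjusted p = 0.00105). Pkm (chromosome 9, 59656368 to 59679375), whose splice forms PKM1 and PKM2 are summed here, rose 2.31-fold, from 397 and 415 CPM to 1117 and 759 CPM (log2 change 1.21 ± 0.22 SE, edgeR adjusted p = 0.00258). Gapdh (chromosome 6, 125161715 to 125166467), which makes the NADH of glycolysis and is often used as a reference gene, had the highest level per length of the 36 in both groups, with means of 397 and 843 CPM per kb. It stood at 578 and 550 CPM in wild type and 1419 and 976 CPM in the libraries labelled knockout, a 2.12-fold rise (log2 change 1.09 ± 0.22 SE, edgeR adjusted p = 0.00463). With WT 2 left out its log2 difference was 1.05, no longer called (edgeR adjusted p = 0.0560).

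Smaller rises were seen for aldolase, triose phosphate isomerase and phosphoglycerate kinase. Aldoa, which cleaves fructose 1,6-bisphosphate, stood at 472 and 432 CPM in wild type and 852 and 589 CPM in the libraries labelled knockout (log2 change 0.67 ± 0.21 SE, edgeR adjusted p = 0.0304). With upper quartile scaling it was not called (0.48, edgeR adjusted p = 0.105). Its call was also lost with WT 1, WT 2 or KO 1 left out (edgeR adjusted p = 0.119, 0.203 and 0.104), and its log2 difference was 0.39 in the last of these. Tpi1, which interconverts the 2 triose phosphates, stood at 100 and 84.5 CPM against 181 and 126 CPM (edgeR adjusted p = 0.0221) and lost its call with upper quartile scaling (0.0712), with WT 2 left out (0.118) and with KO 1 left out (0.128, log2 difference 0.45). Pgk1, an ATP-forming enzyme whose gene is X-linked, stood at 124 and 109 CPM against 222 and 167 CPM (edgeR adjusted p = 0.0134) and lost its call with WT 2 and with KO 1 left out (0.0832 and 0.0677). Both knockout-labelled libraries lay above both wild-type ones for each of these 3 genes. The brain-type isozymes were not called: Aldoc stood at 15.0 and 11.2 CPM against 11.2 and 9.17 CPM and Eno2 at 21.9 and 21.9 CPM against 13.6 and 25.3 CPM (edgeR adjusted p = 0.391 and 0.709).

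Of the 15 members that rose, 13 stood higher in KO 1 than in KO 2, and Slc2a1 and Hk2 stood higher in KO 2. How many of all genes stood higher in KO 1 was not counted, so this split is not shown to set the members apart. The macrophage and fibroblast marker sums were also higher in KO 1, at 6858 against 4758 CPM and at 14820 against 9438 CPM. So were those of smooth muscle (1238 against 736), islet (252 against 151), B cell (168 against 63.4) and T and NK cell markers (29.6 against 18.2). The acinar sum ran the other way, at 248 against 6661 CPM, and the duct marker sums were 3074 and 3048 CPM. What part these cell types had in the differences between the 2 libraries was not tested.

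Of the 4 genes of lactate formation and transport, Ldha and Slc16a3 rose and Ldhb and Slc16a1 were not called. Ldha (chromosome 7, 46841475 to 46855627), the subunit that favours lactate formation, stood at 256 and 225 CPM in wild type and 454 and 373 CPM in the libraries labelled knockout, a 1.72-fold rise (log2 change 0.78 ± 0.17 SE, edgeR adjusted p = 0.00675). With WT 2 left out its log2 difference was 0.70, no longer called (edgeR adjusted p = 0.0837). Ldhb, the subunit that favours lactate use, stood at 28.4 and 24.1 CPM against 21.0 and 21.1 CPM and was not called (log2 difference -0.32 ± 0.23 SE, edgeR adjusted p = 0.289). The log2 ratio of Ldha to Ldhb counts was 3.16 and 3.21 in WT 1 and WT 2 and 4.43 and 4.14 in KO 1 and KO 2, higher in both libraries labelled knockout. Slc16a1, which encodes MCT1, a transporter that carries lactate in or out, stood at 41.3 and 39.8 CPM against 54.0 and 56.5 CPM. Its groups did not overlap, but it was not called (log2 difference 0.45 ± 0.18 SE, edgeR adjusted p = 0.0788). Slc16a3 held 13.2% and 19.5% of the counts of the 2 transporters in WT 1 and WT 2 (exact 95% intervals 8.57 to 19.2 and 14.5 to 25.3) and 60.3% and 53.2% in KO 1 and KO 2 (56.6 to 64.0 and 49.6 to 56.8).

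Among the pyruvate dehydrogenase kinases, which switch off the entry of pyruvate into the citric acid cycle, Pdk1 fell. Pdk1 (chromosome 2, 71873224 to 71903858) stood at 46.2 and 48.0 CPM in wild type and 23.8 and 25.1 CPM in the libraries labelled knockout, a 1.93-fold fall with little spread in either group (log2 change -0.94 ± 0.20 SE, edgeR adjusted p = 0.00585). Pdk3 stood at 26.5 and 29.5 CPM against 35.2 and 32.7 CPM and was not called (edgeR adjusted p = 0.315). Pdk4, a kinase known to respond to fasting, varied within each group, at 20.8 and 11.6 CPM in wild type and 15.0 and 26.6 CPM in the libraries labelled knockout (edgeR adjusted p = 0.455).

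**Figure D3:**
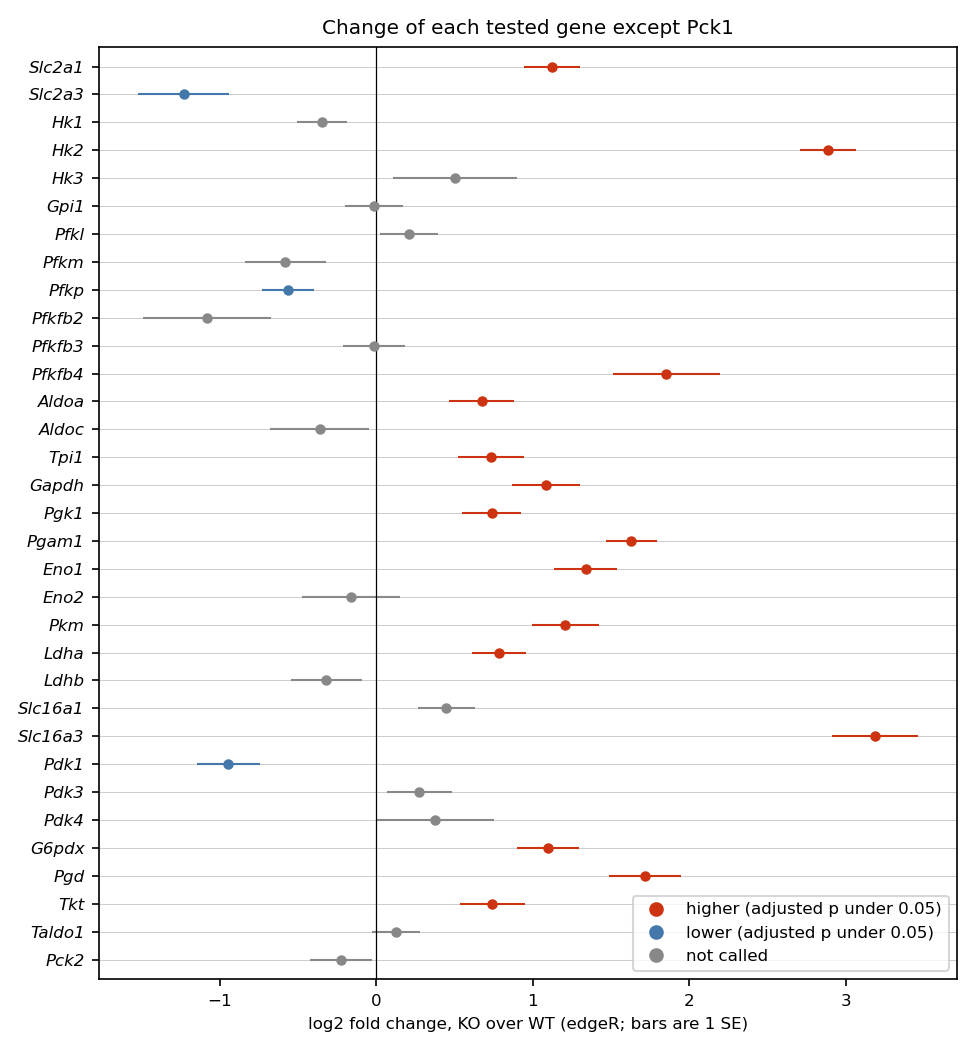
Log2 fold change of each tested gene, libraries labelled knockout over wild type, from the edgeR fit, with bars of 1 standard error and colour by call. Pck1, with a standard error of 3.47, is left out. The main isozymes from Aldoa to Ldha lie to the right of 0, at 0.67 to 1.63, while Aldoc, Eno2 and Ldhb lie at -0.36, -0.16 and -0.32.

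Both members of the oxidative pentose phosphate branch, the NADPH-forming part, rose. Among the further pathway genes read below, Pgls of this branch was not called (log2 difference 0.11 ± 0.34 SE, edgeR adjusted p = 0.815). H6pd, also among them, rose (log2 change 0.66 ± 0.20 SE, edgeR adjusted p = 0.0286). G6pdx (chromosome X, 74409483 to 74429194), glucose 6-phosphate dehydrogenase, is X-linked like Pgk1 and stood at 44.0 and 39.6 CPM in wild type and 101 and 77.2 CPM in the libraries labelled knockout, a 2.14-fold rise (log2 change 1.10 ± 0.20 SE, edgeR adjusted p = 0.00284). Pgd (chromosome 4, 149149991 to 149166771), 6-phosphogluconate dehydrogenase, rose 3.28-fold, from 55.2 and 40.4 CPM to 183 and 130 CPM (log2 change 1.71 ± 0.23 SE, edgeR adjusted p = 6.23e-04). In the non-oxidative branch, which returns pentoses to glycolysis, transketolase (Tkt) stood at 218 and 213 CPM against 433 and 286 CPM (log2 change 0.74 ± 0.21 SE, edgeR adjusted p = 0.0209). With 1 library left out, Tkt kept its call only for KO 2: its edgeR adjusted p was 0.0762 for WT 1, 0.102 for WT 2 and 0.0867 for KO 1, where its log2 difference was 0.42. With upper quartile scaling it was 0.55 and not called (0.0694). Transaldolase (Taldo1) stood at 175 and 171 CPM against 197 and 181 CPM, within a narrow range in all 4 libraries (log2 difference 0.13 ± 0.15 SE, edgeR adjusted p = 0.535).

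The gluconeogenic genes Pck1 and Fbp1 were high in WT 1 alone. Pck1 (chromosome 2, 173153048 to 173159273), cytosolic phosphoenolpyruvate carboxykinase and the classic liver and kidney gene of glucose output, had 773 counts in WT 1, 1 in WT 2, 15 in KO 1 and 6 in KO 2. Fbp1 (chromosome 13, 62864753 to 62888282), fructose 1,6-bisphosphatase, had 178, 3, 3 and 0 counts and did not pass the filter on low counts. The difference for Pck1 was not called (log2 difference -5.77 ± 3.47 SE, edgeR adjusted p = 0.325). With WT 1 left out it was 3.0 (edgeR adjusted p = 0.158), and with WT 2 left out it was -6.78 (1.31e-05), so both its direction and its call rested on 1 library. Liver genes, looked up after these values were seen, were also highest in WT 1, and all 4 had a higher CPM in WT 2 than in KO 1 and KO 2. For 2 of them the levels were low: Apoa1 stood at 9.39 CPM in WT 2 against 0 and 4.35, and Cps1 at 3.13 against 0 and 1.61. Albumin (Alb) had 21060 counts in WT 1, 619 in WT 2, 16 in KO 1 and 7 in KO 2, and the 4 liver markers (Alb, Apoa1, Ttr and Cps1) summed to 7061, 209, 7.20 and 12.6 CPM. The 6 kidney tubule markers looked up with them summed to 1.37, 2.46, 11.6 and 6.44 CPM, with Slc34a1, Kap and Miox at 0 in every library, and the 4 intestine markers to 21.9, 15.0, 17.2 and 26.1 CPM. What part liver RNA had in the Pck1 and Fbp1 counts was not tested. Pck2, the mitochondrial form, stood at 39.6 and 38.4 CPM in wild type and 32.2 and 34.6 CPM in the libraries labelled knockout, with no excess in WT 1 (log2 difference -0.22 ± 0.20 SE, edgeR adjusted p = 0.395).

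**Figure D4:**
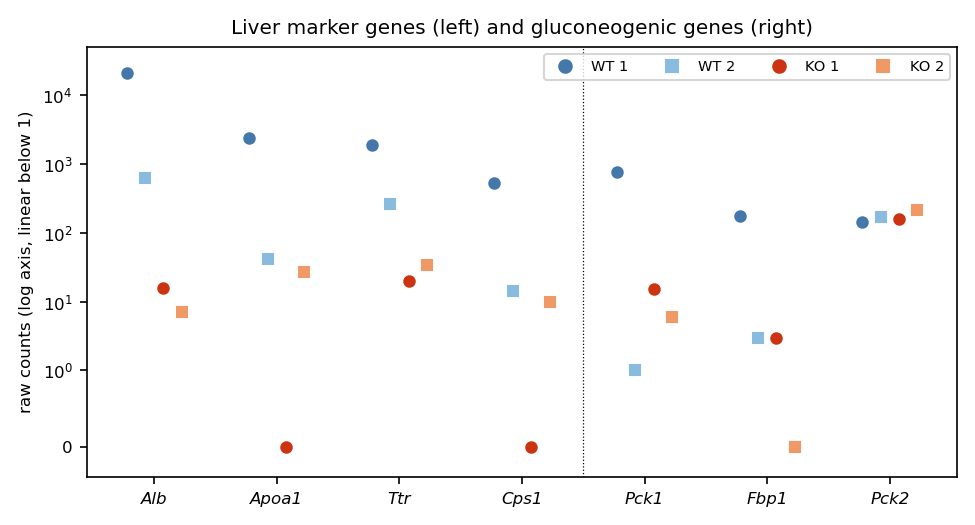
Raw counts in each library of 4 liver markers (left of the dotted line) and of Pck1, Fbp1 and Pck2 (right), on a log axis that is linear below 1. WT 1 holds 21060 Alb, 773 Pck1 and 178 Fbp1 counts, above the other 3 libraries for each, while Pck2 lies between 145 and 215 counts in all 4.

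The rest of the pathway was read from a list of 47 further genes, of which 37 were tested. Of these, 4 rose and 6 fell (10.8% and 16.2% of the tested genes, against 22.0% and 20.2% of all genes), with a median log2 change of -0.09. Both counts moved when 1 library was left out, so they rested in part on single libraries. Those fits also called fewer of all genes. Bpgm, which makes 2,3-bisphosphoglycerate, had the largest rise, from 18.0 and 21.5 CPM to 51.0 and 36.9 CPM (log2 change 1.15 ± 0.24 SE, edgeR adjusted p = 0.00599). Pgm2, a phosphoglucomutase, and Dlat, a subunit of pyruvate dehydrogenase, had log2 changes of 0.75 and 0.74 (edgeR adjusted p = 0.0459 and 0.0233). Both calls were lost with WT 2 left out (0.239 and 0.147) and with KO 1 left out (0.223 and 0.0898), as well as with upper quartile scaling (0.118 and 0.0710). The call of Pgm2 was also lost with RLE size factors (0.0505) and with DESeq2 (0.0778).

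The 3 largest falls in that list were of transporters and an enolase of specialised tissues. Slc2a2, the GLUT2 transporter of beta cells and liver, had 118 and 59 counts in wild type and 0 and 1 in the libraries labelled knockout, a pooled ratio of 244 (95% interval 43.2 to 9688, counting error only). The 5 islet markers summed to 1098 and 2077 CPM in wild type and 252 and 151 CPM in the libraries labelled knockout. The 4 liver markers summed to 7061 and 209 CPM in wild type and 7.20 and 12.6 CPM in the libraries labelled knockout. Slc2a2 itself stood at 32.2 CPM in WT 1 and 13.2 in WT 2. What part islet or liver RNA had in its fall was not tested. Eno3, the muscle enolase, fell 8.52-fold, from 21.3 and 31.1 CPM to 3.60 and 2.58 CPM (edgeR adjusted p = 2.70e-04). Slc2a4, the insulin-responsive GLUT4 transporter of fat and muscle, stood at 11.2 and 4.25 CPM against 1.60 and 0.805 CPM (edgeR adjusted p = 0.0111) and lost its call with WT 1 left out (0.115, log2 difference -1.81) and with KO 2 left out (0.0896, -2.21). The 4 smooth muscle markers summed to 3691 and 2986 CPM in wild type and to 1238 and 736 CPM in the libraries labelled knockout, with none at 0. The 4 adipocyte markers summed to 55.2 and 55.0 against 66.4 and 55.4 CPM, and 2 of the 3 tested rose. Among them Adipoq had 0 counts in both wild-type libraries and 32 and 22 in KO 1 and KO 2.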

How the data were processed

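The authors deposited unnormalised counts for 52535 gene models in each library. The submitters' processing notes name the mm10 build, TopHat and edgeR. Per the labels' protocols, 1 µg of total RNA went into strand-preserving SMARTer libraries. How reads were assigned to genes, with which annotation, and whether strand or multiple matches were considered is not given in the sources used here. Exons of 12 members overlap another counted gene, in each case on the opposite strand, and many glycolytic genes have processed pseudogenes, so these counts are uncertain to that extent. Models named as copies held 72 counts for Pgam1 and 127 for Eno1 (Eno1b) over all libraries.

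After filterByExpr, which kept 13990 genes, and TMM scaling, edgeR 4.0.16 under R 4.3.3 was used for a robust quasi-likelihood fit (glmQLFit, glmQLFTest) of genotype alone, with 2 residual degrees of freedom. The threshold was a Benjamini-Hochberg adjusted p of 0.05. SE is the absolute log2 change over the square root of the F statistic. The procedure was tested on simulated counts in which few genes changed, as many up as down, with the same spread for every gene. That setting does not cover shifts as wide as those seen here. Replicates within a group differed by more than sampling noise (chi-square per degree of freedom of 20.06 and 19.98). A floor of 3 counts equals 0.506 to 0.841 CPM. Start coordinates, counted from 0 in the files, are given from 1, and transcript lengths are from GENCODE M21 (86.6% of models have its coordinates). Alternatives were DESeq2 1.42.0, other scalings, no filter, acinar genes taken out, each library left out and a replicate block. The text names all 36 members, up to 3 largest rises and falls of the further pathway genes, also Pgls and H6pd, Lats1, Lats2 and markers. The members and lists were chosen with earlier results of these data known, and the liver, kidney and intestine markers, as well as Xist and the Y-linked genes, after the values were seen.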

Additional observations from a re-analysis of the deposited data

How the results depend on the processing

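Upper quartile scaling called 6 of 34 members lower, where TMM scaling called 3 (25.7% against 20.2% of all genes). It called 1 of 37 further pathway genes higher, where TMM called 4 (16.7% against 22.0% of all genes). It also moved the split of all called genes from 52.1% to 39.4% higher. Without the low-count filter, 7 of 46 further pathway genes were higher, against 14.3% of all genes. Without 1 library at a time, the members that rose numbered 9 to 15, those that fell 1 to 3, the further pathway genes that rose 1 to 6 and those that fell 2 to 11, and 4206 to 4608 of all genes changed, against 5910.

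The sign of 6 members turned. With library totals only, the log2 difference of Gpi1 was 0.0195 and that of Pfkfb3 0.038, and without a filter they were 0.0586 and 0.0636. Taldo1 was at -0.0693 with upper quartile scaling. Over the fits without 1 library, Gpi1 ran from -0.23 to 0.21, Pfkfb3 from -0.26 to 0.23, Eno2 from -0.65 to 0.21, Pdk4 from -0.0721 to 0.86 and Pck1 from -6.78 to 3.0. Of these values only that of Pck1 without WT 2, at -6.78, was called. The cause was not tested.

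With the replicate number as a block, 15 members rose and 3 fell, the same members as without it, and 6656 of all genes changed (24.8% of those tested higher and 22.8% lower). The numbers were not taken to pair the libraries, since the labels do not say so and the deviations of same-numbered libraries correlated at 0.04 across 13990 genes. Depth limits the members with few counts: Pfkfb1, with 6 to 9 counts a library, was not tested.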
